A study of Equus caballus with 37 samples.

Results

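Blood transcriptomes of Arabian horses in race training were compared between 2 successive training periods, the canter phase (T1) and the gallop phase (T2). Libraries were chosen by the training period in their sample title, which gave 23 of the 37 libraries of the series. These were 12 of T1, taken in March after the slow canter phase, and 11 of T2, taken in May after the intense gallop phase. All horses were 3 years old. T1 held 5 mares and 7 stallions, and T2 held 4 mares and 7 stallions. The study drew blood in each period after the morning feeding and before training. It was taken from the jugular vein into Tempus tubes, which lyse the whole sample, so each library holds the RNA of all blood cells. By the study's methods the same horses were sampled in both periods, so T1 and T2 share animals, but the labels do not say which library belongs to which horse. The periods were therefore compared as independent groups, and the p-values do not take the shared animals into account. The month of sampling and the training phase cannot be told apart.

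Circulating blood carries neutrophils, lymphocytes, monocytes, platelets and red cells, and hard exercise is known to change both how many of these cells circulate and which genes they transcribe. A change in RNA from bulk blood can therefore come from a changed share of a cell type or from a changed level per cell, and these cannot be told apart here. The genes that could be named include MHC molecules, which present peptides to T cells, granzymes, which cytotoxic lymphocytes release to kill target cells, and interferon-induced antiviral proteins, together with genes of ribosomes, splicing, chromatin and membrane traffic. Genes were identified by Ensembl identifiers, and names were given only to the 74 genes whose identifiers the study prints, several of them as orthologue names. Of 155 symbols chosen as markers of blood cell types, 1 could be paired with an identifier, so the cellular make-up of the libraries was not measured.

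Of 11188 genes tested, 3584 (32.0%) were called differentially expressed, with 1258 (11.2%) higher and 2326 (20.8%) lower in T2. Called means an adjusted p-value below 0.05 from edgeR's quasi-likelihood test together with a rise or fall of 1.3-fold or more. Every log2 fold change is T2 minus T1, so that a negative value means less expression in T2. In this fit 907 genes were at least 2-fold lower and 89 at least 2-fold higher. The excess of large falls depended on the model and the libraries: the numbers lower and higher were 45 and 59 in limma voom with sample weights, 105 and 453 when libraries were scaled by their totals alone, 1666 and 1621 between mares alone, and 1629 and 1714 without the 5 T1 libraries that had the highest TMM factors. The excess stayed in DESeq2 (1104 and 153), with all 37 libraries in the fit (998 and 122) and with sex as a term (653 and 161). It also stayed in every fit that left out 1 library. The median log2 fold change over all tested genes was 0.06. The balance of rises and falls depended on the model: 35.1% of calls were rises here, 44.7% with all 37 libraries in the fit, 45.3% with sex as a term, 6.58% when the fold threshold itself was tested with glmTreat, 22.6% to 24.3% without T1 replicate 1, 2, 3 or 4, 53.5% in limma voom with sample weights and 65.4% when libraries were scaled by their totals alone. That last scaling moved the median of all genes to 0.43.

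The T1 libraries did not form one group. TMM factors, which correct each library for its composition, were 0.552, 0.594, 0.637, 0.778 and 0.444 in T1 replicates 1, 2, 3, 4 and 11, while the other 7 T1 libraries lay between 1.02 and 1.25 and the T2 libraries between 1.03 and 1.32. In log2 units the TMM factor was -0.23 ± 0.51 (SD, n = 12) in T1 and 0.25 ± 0.12 (SD, n = 11) in T2, a difference with p = 0.00439 in a two-sided permutation test and 0.0176 after Benjamini-Hochberg adjustment over 4 library measures. The first principal component of log2 CPM held 60.5% of the variance and put these 5 libraries between -167 and -50.3, the other T1 libraries between -1.18 and 40.2, and T2 between -4.49 and 54.5. Depth moved with this in 1 library: T1 replicate 11 had the smallest total of 3810631 counts, whereas the other 4 had 9197410 to 10308873 counts, inside the T2 range of 6871395 to 12219646. Totals did not pass the test between periods (permutation p = 0.697), nor did the number of genes detected (adjusted p = 0.128, permutation test) or the share of counts in the 10 largest genes (adjusted p = 0.113, permutation test). That share was 8.97% to 12.1% in the 5 libraries, 7.66% to 9.15% in the other 7 T1 libraries and 7.32% to 8.98% in T2. Genes detected were 11559 to 14108 in the 5, 14039 to 15208 in the other 7 and 13845 to 15081 in T2. T1 replicates 1 and 2, with totals inside the T2 range, had 13203 and 13209 genes detected, below every T2 library.

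Sex moved with the TMM factor as well. Of the 5 T1 libraries with the lowest factors, 4 came from mares and 1 from a stallion. T1 mares had factors of 0.444 to 1.05 with a median of 0.637, and T2 mares had 1.05 to 1.28. The factors of T1 stallions had a median of 1.12 and those of T2 stallions 1.18. The fifth T1 mare, replicate 9, had a factor of 1.05. In the study's listing of sequenced samples, the T1 samples that carry the same numbers as these libraries have the lowest shares of uniquely mapped reads of that period, and all of them but the one with the smallest total were sequenced in a pool that holds no other T1 sample. The labels do not state that the listing uses the numbers of the titles, and mapping shares and pools were not used here, so their part in the results was not tested. The results below are given with and without the 5 libraries. They were picked by their TMM factor, which comes from the same counts, so leaving them out describes the result and is no independent test of it.

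**Figure D1:**
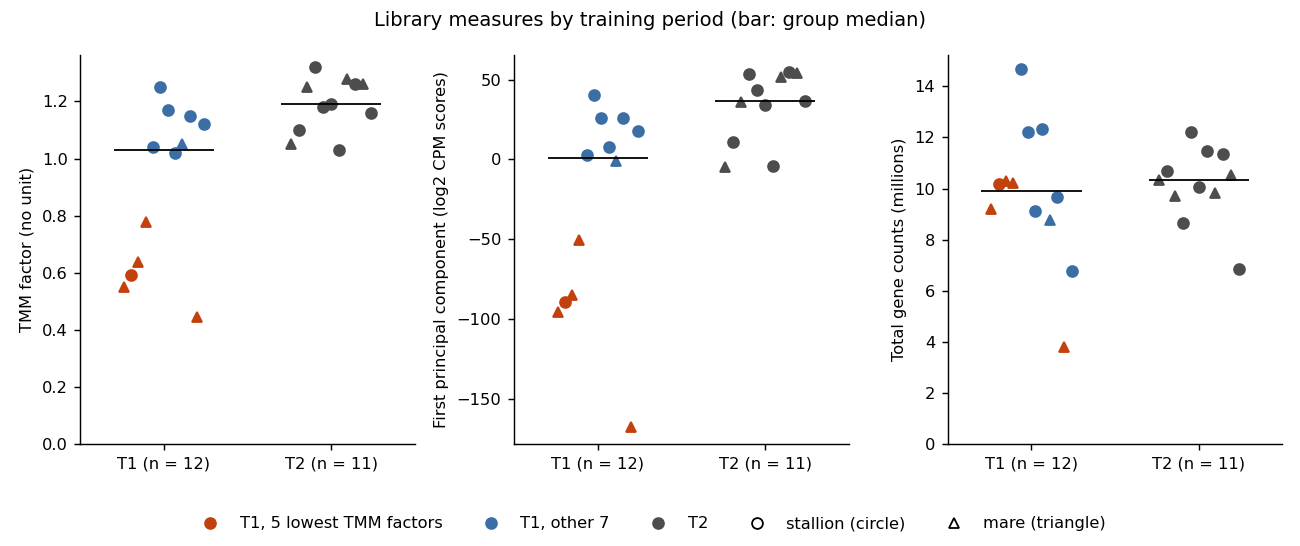
TMM factor, first principal component score and total gene counts (1e6 counts) for each of the 12 T1 and 11 T2 libraries, with triangles for mares, circles for stallions and a bar at the group median. The 5 orange T1 libraries have TMM factors of 0.444 to 0.778 and scores of -167 to -50.3, below every other library, while 4 of their 5 totals lie inside the T2 range.

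Expression varied more within T1 than within T2. The median SD of log2 CPM was 0.63 over the 12 T1 libraries and 0.353 over the 11 T2 libraries, and the median ratio of the 2 SDs was 1.71, with T1 more variable at 86.7% of genes. Without the 5 libraries the ratio was 0.857, and T1 was more variable at 33.7% of genes. Over all tested genes, 19.9% of the sum of squares lay between the periods, 60.5% within T1 and 19.6% within T2. Among the genes called lower in T2, for which the period difference was part of the choice, 30.7% lay between the periods and 56.8% within T1.

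Over the called genes, the same 5 libraries made up most of the difference. These genes were called in a fit that holds the 5 libraries, so the shares below partly follow from the choice of genes. Shares over all tested genes were not computed. At the 2326 genes lower in T2, each of the 5 lay above every T2 library at 89.0% to 96.1% of genes, while the other 7 T1 libraries did so at 3.01% to 37.4%. At the 1258 genes higher in T2, each of the 5 lay below every T2 library at 70.8% to 90.5% of genes, against 3.74% to 44.6% for the others. Their share of the distance between the group means had a median of 81.5% over the lower genes and 74.4% over the higher genes, where 5 of 12 equal libraries would hold 41.7%. A T1 stallion, replicate 6, stood at the other end, with 3.01% of the lower genes above T2. The genes lower in T2 had a median log2 fold change of -0.87 and a median difference of group medians of -0.54, whereas the genes higher in T2 had 0.71 and 0.70.

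**Figure D2:**
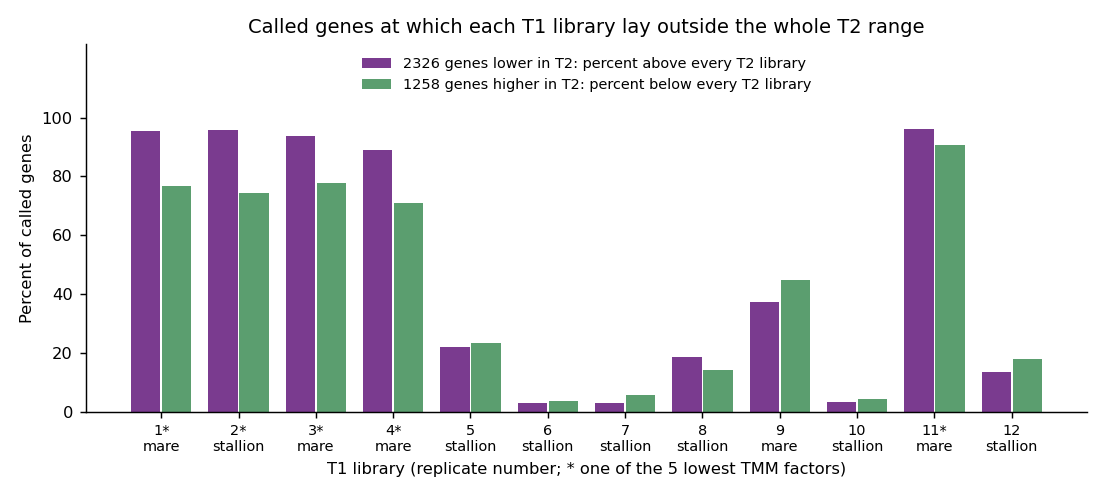
For each T1 library, by replicate number and sex, the percent of the 2326 genes called lower in T2 at which it lay above every T2 library and the percent of the 1258 genes called higher at which it lay below every T2 library. The 5 starred libraries reach 70.8% to 96.1%, and among the rest replicate 9, a mare, has the highest bars with 37.4% and 44.6%.

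The number of called genes fell as these libraries were left out in order of their TMM factor. It was 2987 without the lowest, 1852 without 2, 4 without 3, 1 without 4 and 0 without 5 or 6 in edgeR. Without the 5 libraries 1444 genes had an unadjusted p below 0.05, DESeq2 called 15 genes and limma voom with sample weights called 705, of which 676 were among the 3584. Over the 3584 genes, the log2 fold change fitted by edgeR without the 5 had a median of 0.369 of the value fitted with them. Both fits hold the same T2 libraries and 7 of the same T1 libraries. Leaving out instead the 5 T1 libraries with the highest factors gave 6881 called genes. Between stallions alone, 7 of each period, edgeR called 0 genes, with 1088 at an unadjusted p below 0.05, DESeq2 called 2 and limma voom called 0. Between mares alone, 5 against 4, edgeR called 3984 of 11197 genes (35.6%). The sex by period interaction, the test of that contrast itself, was called at 0 genes in edgeR, with 3075 at an unadjusted p below 0.05, and at 35 genes in DESeq2. With the first surrogate variable or with the log2 TMM factor in the model edgeR called 0 genes, with 610 and 649 at an unadjusted p below 0.05.

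**Figure D3:**
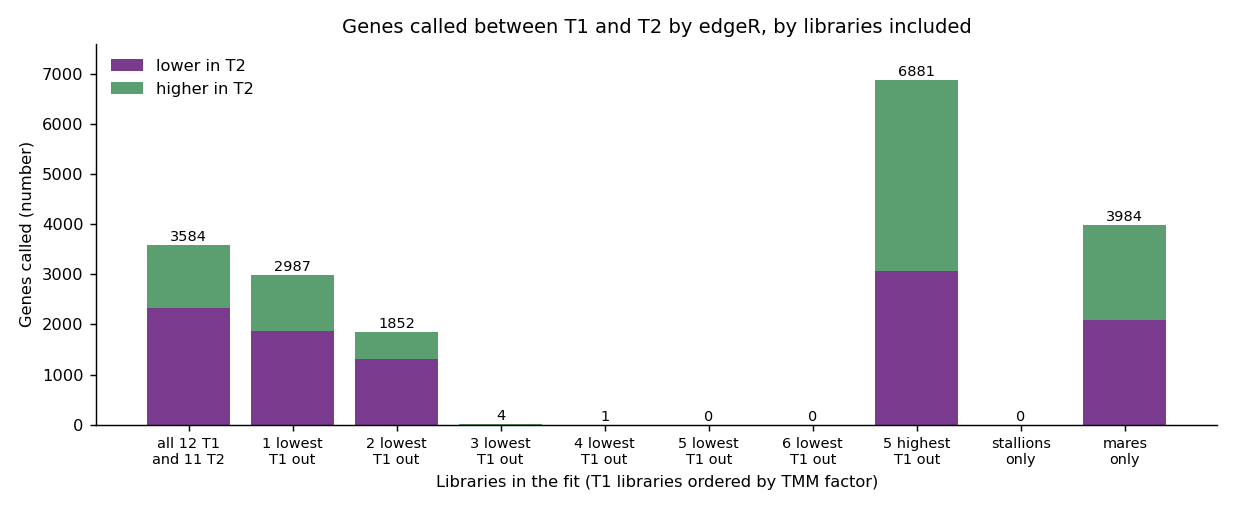
Number of genes called lower and higher in T2 by edgeR in 10 choices of libraries, with the total above each bar. The total goes from 3584 with all libraries to 2987, 1852, 4, 1, 0 and 0 as the T1 libraries with the lowest TMM factors are left out, and is 0 between stallions and 3984 between mares.

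Of the 74 genes with a name or identifier from the study, 7 were called higher and 15 lower in T2, 29.7% against a background of 32.0% of all genes. With DESeq2 at the same thresholds, the study itself reported far fewer genes changed between these periods than were called here. Of the 20 that the study prints for this comparison, 1 was called higher and 6 lower, and these 20 were chosen by the study on these samples. The other 52 genes had log2 fold changes of -0.78 to 0.79. All 5 of the low-TMM T1 libraries lay above every T2 library at 12 of the 15 lower genes, and below every T2 library at 2 of the 7 higher genes. Over all called genes, each of the 5 alone lay above T2 at 89.0% to 96.1% of the lower genes. It lay below T2 at 70.8% to 90.5% of the higher genes. The share for all 5 libraries together was not counted. Without these libraries 0 of the 22 were called in edgeR, with the smallest adjusted p at 0.37, and the median log2 fold change went from -1.04 to -0.34 for the lower genes and from 0.85 to 0.46 for the higher genes. Every one of the 22 had a larger fitted change between mares than between stallions, with medians of -1.48 and -0.64 for the lower genes and 1.61 and 0.55 for the higher genes. The change was also larger between mares at 41 of the 52 uncalled genes. Over all called genes, the log2 fold change had a median of 1.54 of the main value between mares and 0.535 between stallions.

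The groups below were put together from the 74 genes with results known, so their counts describe these genes and no group was tested. Of 6 genes of the ribosome and of RNA processing, 4 were called lower and 0 higher, beside 20.8% and 11.2% of all genes, and 0 were called without the 5 libraries. LOC100059314, listed by the study as a ribosomal protein gene, had 3.42, 8.26 and 38.4 CPM (lowest, median and highest) in T1 and 1.54, 3.61 and 5.75 in T2. The log2 fold change was -2.02 (SE 0.40, adjusted p = 0.0066, edgeR). The 5 low-TMM libraries held 20.7 to 38.4 CPM, apart from both the other T1 libraries at 3.42 to 8.99 and from T2, and the log2 fold change without them was -0.72 (SE 0.25). RP9, which is linked to pre-mRNA splicing, ran from 83.2 over 140 to 842 CPM in T1 and from 50.6 over 81.0 to 139 in T2, a log2 fold change of -2.00 (SE 0.40, adjusted p = 0.0066, edgeR). The library values of RP9 in the 5 were 648, 761, 505, 334 and 842 CPM, and no other library exceeded 148. SYF2, a splicing factor, had 56.1, 87.2 and 160 CPM in T1 and 32.8, 53.4 and 87.7 in T2, a log2 fold change of -0.82 (SE 0.18, adjusted p = 0.0066, edgeR). For SYF2 the 2 parts of T1 overlapped, at 92.6 to 160 and 56.1 to 99.7 CPM.

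RPL23A, a protein of the large ribosomal subunit, had 183, 510 and 876 CPM in T1 and 190, 275 and 389 in T2. In T1 8 of the 12 libraries lay above every T2 library and 1 below, and the log2 fold change was -0.79 (SE 0.22, adjusted p = 0.012, edgeR). Without the 5 libraries it was -0.34 (SE 0.21, adjusted p = 0.46). The remaining members of the group, the RNA-binding proteins LARP4 and RBM27, were not called, with log2 fold changes of 0.52 (SE 0.23) and 0.39 (SE 0.16). The median of the 6 genes was -0.80 with all libraries and -0.40 without the 5.

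Among 4 antiviral genes, 2 were called lower, beside 20.8% of all genes. The other 2 were not called and had log2 fold changes of 0.27 and 0.58, and the median of the 4 was -0.20 with all libraries and 0.00 without the 5. APOBEC3Z2E, a cytidine deaminase of the family that restricts retroviruses, had 62.3, 100 and 201 CPM in T1 and 42.9, 63.5 and 132 in T2. A log2 fold change of -0.68 (SE 0.21, adjusted p = 0.020, edgeR) was fitted, and the groups overlapped, with 3 T1 libraries above every T2 library. LOC100050719, related to the interferon-induced transmembrane protein 3 that blocks viral entry, had 19.0, 34.9 and 116 CPM in T1 and 13.7, 27.8 and 40.5 in T2. Its log2 fold change was -0.80 (SE 0.30, adjusted p = 0.042, edgeR) and became -0.09 (SE 0.22) without the 5 libraries. That call was lost when any 1 of 10 libraries was left out, T1 replicates 2, 3 and 11 and T2 replicates 3, 4, 6, 8, 9, 10 and 11, with log2 fold changes of -0.89 to -0.61.

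Of 6 MHC genes, 1 was called, where the share over all genes was 32.0%. This was ENSECAG00000015782, an MHC class I-like gene that fell. It had 492, 1500 and 4630 CPM in T1 and 331, 756 and 1560 in T2, with a log2 fold change of -1.04 (SE 0.34, adjusted p = 0.025, edgeR). The 5 libraries held 1840 to 4630 CPM and the other 7 T1 libraries 492 to 1710, overlapping with T2. The call of ENSECAG00000015782 was lost without T1 replicate 1, T1 replicate 2 or T2 replicate 10. LOC100051586, also class I-like, had 739, 2060 and 8290 CPM in T1 and 444, 1140 and 3590 in T2, and its log2 fold change of -0.77 (SE 0.41, adjusted p = 0.13, edgeR) did not pass the test. ENSECAG00000009368 ranged from 10.6 to 5190 CPM in T1 and from 7.38 to 2290 in T2, with an SD of log2 CPM of 3.64 and 3.54, and this spread lay inside both periods. The fitted log2 fold change was -0.78 (SE 1.21). MHC genes resemble each other closely and vary between animals, so reads may be divided among them in a way the counting does not settle.

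Neither of the 2 granzyme genes was called, where the share over all genes was 32.0%. GZMH, a serine protease of cytotoxic granules, had 58.4, 99.3 and 336 CPM in T1 and 36.5, 74.9 and 161 in T2, with a log2 fold change of -0.69 (SE 0.32, adjusted p = 0.089, edgeR). Without the 5 libraries GZMH had -0.03 (SE 0.28), and between stallions -0.68 (SE 0.40).

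Of 4 cell surface receptor genes 1 was called, which is near the 32.0% of all genes. LY5, the study's name for a lymphocyte antigen orthologue, had 5.91, 26.3 and 43.9 CPM in T1 and 12.3, 42.4 and 66.8 in T2, with a log2 fold change of 0.85 (SE 0.32, adjusted p = 0.044, edgeR). The 5 libraries held 5.91 to 13.5 CPM, under the 26.2 to 43.9 of the other T1 libraries, and LY5 was called in 11 of the 23 fits that left out 1 library. These were the fits without T1 replicate 5, 6, 7, 8, 10 or 12 or without T2 replicate 1, 2, 6, 7 or 11. IL10RB, a receptor chain for interleukin 10 and related cytokines, had 191, 293 and 395 CPM in T1 and 179, 215 and 290 in T2, and its log2 fold change of -0.32 (SE 0.13, adjusted p = 0.053, edgeR) did not pass.

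Of 8 genes of membrane traffic, glycosylation and the nuclear pore, 3 were called higher and 0 lower, beside 11.2% and 20.8% of all genes, and 0 were called without the 5 libraries. POM121C, a nuclear pore membrane protein, had 2.96, 8.32 and 20.4 CPM in T1 and 6.51, 21.6 and 29.6 in T2, a log2 fold change of 1.13 (SE 0.27, adjusted p = 0.0067, edgeR). Here 5 T1 libraries, those with low TMM factors at 2.96 to 6.13 CPM, lay below every T2 library, and the log2 fold change of the rest was 0.73 (SE 0.25, adjusted p = 0.37). ATP13A3, a transport ATPase of endosomes, had 4.73, 12.4 and 19.5 CPM in T1 and 7.59, 18.8 and 32.1 in T2, a log2 fold change of 0.77 (SE 0.26, adjusted p = 0.028, edgeR). WDR7, which works with the proton pump of acidic vesicles, had 1.68, 5.02 and 7.06 CPM in T1 and 2.37, 8.39 and 12.9 in T2, a log2 fold change of 0.76 (SE 0.27, adjusted p = 0.035, edgeR). The call of ATP13A3 was lost without T1 replicate 2, 3 or 4 or T2 replicate 4, 8, 9 or 10, with log2 fold changes of 0.67 to 0.88 when 1 library was left out, and that of WDR7 without T1 replicate 1, 2, 3 or 4 or T2 replicate 4, 8, 9 or 10, with 0.66 to 0.86. The uncalled members included GALNT7, an enzyme of O-linked glycosylation, at 0.79 (SE 0.32, adjusted p = 0.058) and TRAPPC10, a vesicle tethering subunit, at 0.63 (SE 0.26, adjusted p = 0.060), both close to the threshold in edgeR.

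Among 10 genes of chromatin and coregulators, 1 rose and 1 fell, beside 32.0% called over all genes. SRCAP, the ATPase of a chromatin remodelling complex that deposits the histone variant H2A.Z, had 19.0, 36.9 and 85.3 CPM in T1 and 18.8, 77.0 and 101 in T2. The change on the log2 scale was 0.88 (SE 0.26, adjusted p = 0.014, edgeR). No T1 library lay below T2, because 1 T2 library was the lowest of all, and of the 22 called genes among the 74 SRCAP kept the largest part of its change without the 5 libraries, at 0.75 (SE 0.31, adjusted p = 0.38). ANP32A, an inhibitor of histone acetylation, had 195, 328 and 972 CPM in T1 and 149, 171 and 298 in T2, a log2 fold change of -1.22 (SE 0.27, adjusted p = 0.0066, edgeR). In ANP32A 7 T1 libraries lay above every T2 library, and without the 5 the log2 fold change was -0.41 (SE 0.15). MBTD1, a reader of methylated histones, did not pass at 0.70 (SE 0.28, adjusted p = 0.056, edgeR). With 32.0% of all genes called, none of the 7 transcription factors was, with log2 fold changes of -0.10 to 0.65, and none of the 3 genes of kinase signalling, where RICTOR of the mTORC2 complex had 0.45 (SE 0.23) and HIPK1 had 0.53 (SE 0.22). Of the uncalled genes named here, MBTD1, LARP4, GALNT7, TRAPPC10, RBM27 and HIPK1 passed in 6, 2, 6, 5, 5 and 4 of the 23 fits that left out 1 library, each without 1 of T1 replicates 6, 7, 10 and 12 or T2 replicates 1, 2, 6 and 7.

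**Figure D4:**
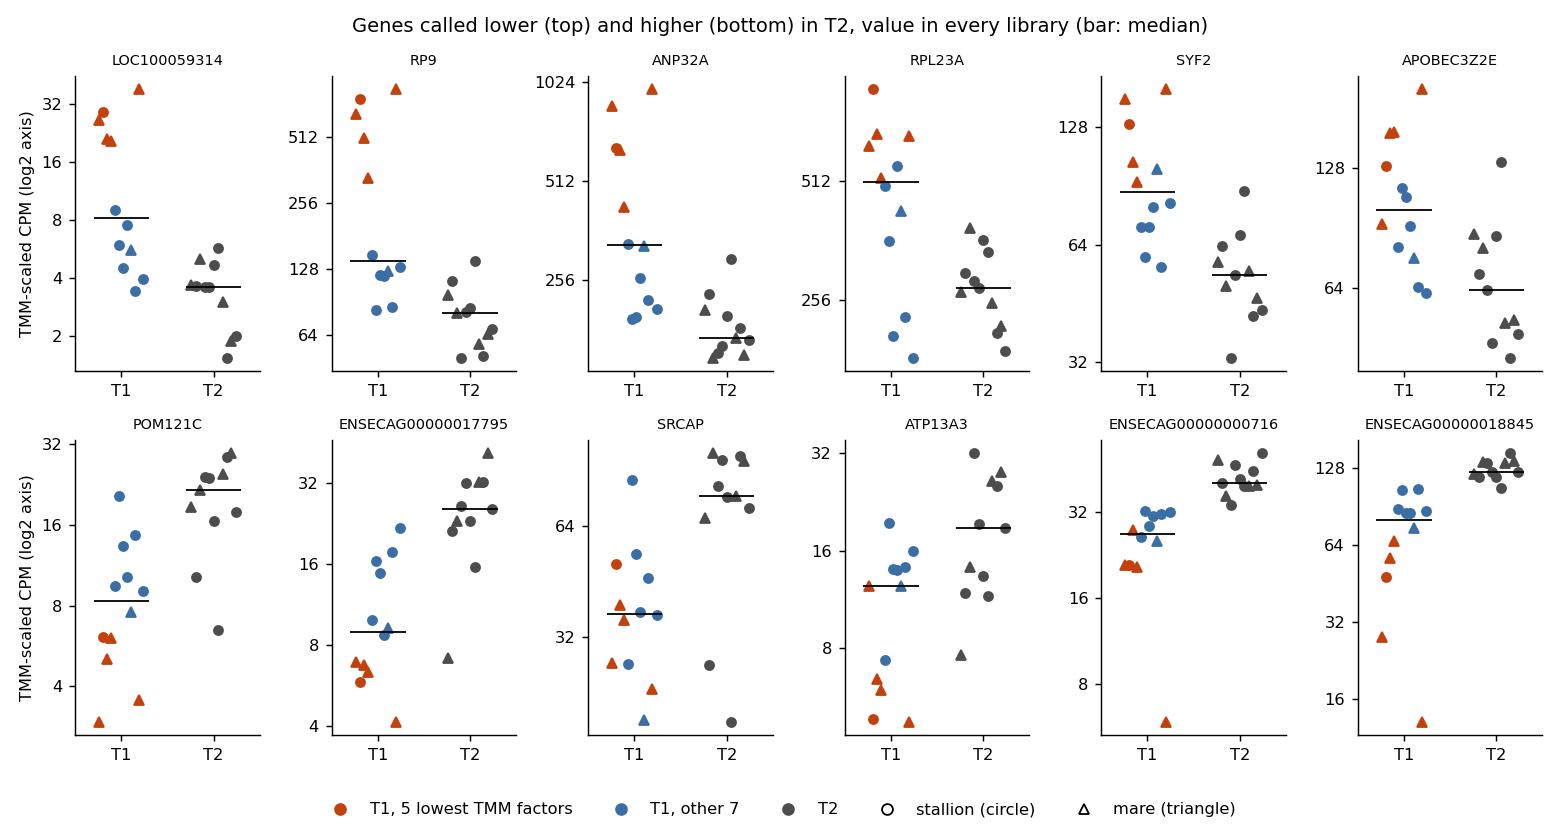
TMM-scaled CPM on a log2 axis in each T1 and T2 library for 6 genes called lower in T2 (top row) and 6 called higher (bottom row), with triangles for mares, circles for stallions and a bar at the median. In RP9 the 5 orange libraries stand at 334 to 842 CPM above all others, while in ENSECAG00000000716 and ENSECAG00000018845 all 12 T1 libraries lie below every T2 library.

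The remaining called genes of the 74 had other roles. MDP1, a phosphatase, was the 1 called gene of 7 in metabolism and iron handling, beside 32.0% called over all genes. It had 46.8, 90.2 and 420 CPM in T1 and 21.4, 52.9 and 82.2 in T2, a log2 fold change of -1.52 (SE 0.33, adjusted p = 0.0066, edgeR). SYCE1, a synaptonemal complex protein known from meiosis, had 2.63, 7.35 and 32.1 CPM in T1 and 1.5, 3.63 and 8.06 in T2. Its log2 fold change of -1.79 (SE 0.45, adjusted p = 0.0073, edgeR) became -0.22 (SE 0.30) without the 5 libraries, whose values were 25.8 to 32.1 CPM. CRYGS, a crystallin known from the lens, had 9.30, 12 and 36.1 CPM in T1 and 1.93, 8.95 and 14.3 in T2, with a log2 fold change of -1.17 (SE 0.30, adjusted p = 0.0078, edgeR), and only the 5 libraries lay above T2. ANKZF1, which acts in ribosome quality control, had 128, 243 and 433 CPM in T1 and 83.7, 146 and 230 in T2, a log2 fold change of -0.82 (SE 0.22, adjusted p = 0.0099, edgeR).

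NHSL2, related to the actin regulator NHS, had 3.55, 9.91 and 18.0 CPM in T1 and 5.58, 17.9 and 27.6 in T2, and rose by a log2 fold change of 0.69 (SE 0.24, adjusted p = 0.030, edgeR). The call was lost without T1 replicate 1, 2, 3 or 4 or T2 replicate 5 or 10, with log2 fold changes of 0.61 to 0.80. The change in NHSL2 was 1.54 between mares and 0.25 (SE 0.27) between stallions. Of the other genes known by identifier alone, 3 fell and 1 rose. ENSECAG00000014226 had the largest fall of the 74, from 212, 784 and 4350 CPM in T1 to 85.5, 208 and 826 in T2, a log2 fold change of -2.49 (SE 0.53, adjusted p = 0.0066, edgeR). ENSECAG00000014186 and ENSECAG00000012920 had log2 fold changes of -1.01 (SE 0.30, adjusted p = 0.015, edgeR) and -0.42 (SE 0.14, adjusted p = 0.024, edgeR). The call of ENSECAG00000012920, which the study places among defence proteins, was lost without T1 replicate 3 or 8 or T2 replicate 9 or 10, with log2 fold changes of -0.46 to -0.35. ENSECAG00000017795 had the largest rise, from 4.14, 8.92 and 21.6 CPM to 7.13, 25.5 and 41.2, a log2 fold change of 1.23 (SE 0.26, adjusted p = 0.0066, edgeR), and 0.86 (SE 0.26) without the 5 libraries.

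**Figure D5:**
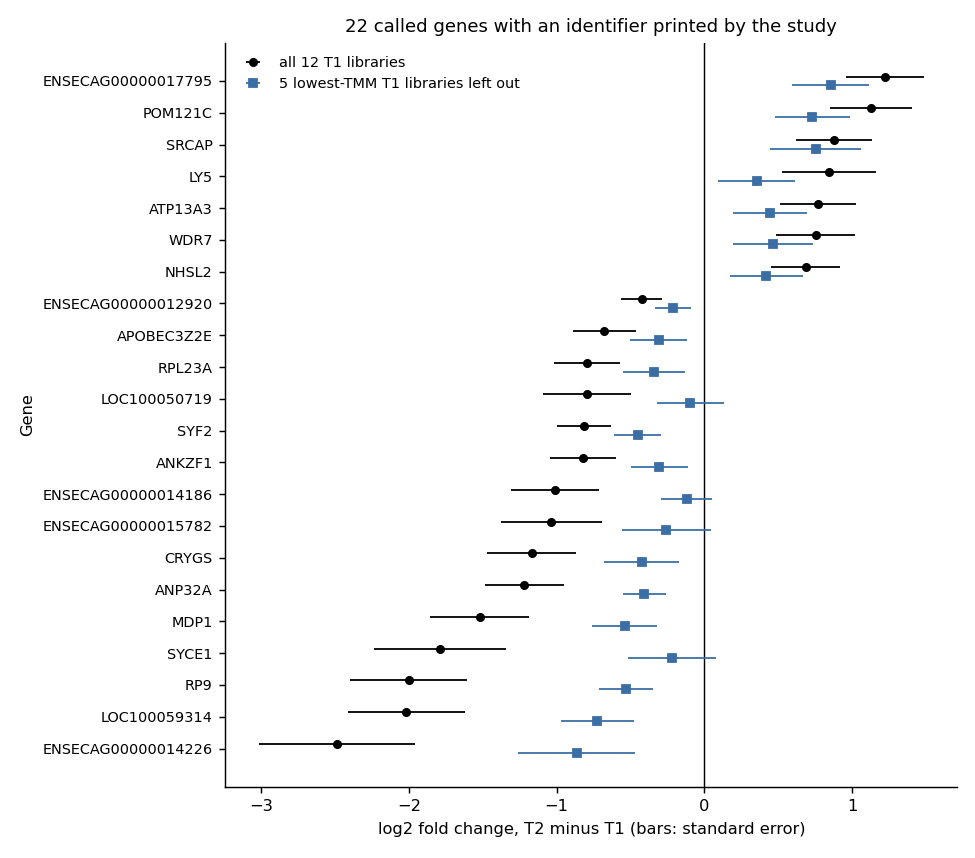
Log2 fold change, T2 minus T1, with its standard error for the 22 called genes among the 74, with all 12 T1 libraries (black) and without the 5 with the lowest TMM factors (blue). The blue point lies nearer to 0 than the black one in each gene, with the median of the 15 lower genes going from -1.04 to -0.34 and that of the 7 higher genes from 0.85 to 0.46.

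Among called genes that averaged 50 counts or more per library, the 5 largest falls were those of genes known here only by identifier. ENSECAG00000025265 had 15.6, 64.5 and 435 CPM in T1 and 3.09, 15.1 and 22 in T2, a log2 fold change of -3.25 (SE 0.57, adjusted p = 0.0066, edgeR), with 9 of 12 T1 libraries above every T2 library. Without the 5 low-TMM libraries ENSECAG00000025265 had -1.30 (SE 0.35, adjusted p = 0.37). ENSECAG00000017292 had 35.8, 75.8 and 999 CPM in T1 and 20.6, 29.5 and 65.1 in T2, a log2 fold change of -3.00 (SE 0.55, adjusted p = 0.0066, edgeR) that was -0.71 (SE 0.22) without the 5. ENSECAG00000027377 and ENSECAG00000010783 each had a log2 fold change of -2.52, and -0.92 and -0.53 without the 5. The fifth, ENSECAG00000017437, rested on few libraries: it had 1.05, 4.2 and 827 CPM in T1 and 1.47, 2.22 and 51.5 in T2, with 2 T1 libraries above every T2 library. Its log2 fold change of -2.95 (SE 1.10, adjusted p = 0.042, edgeR) was -0.07 without T1 replicate 3, which held the 827 CPM, and 1.66 (SE 0.73) without all 5. The call was also lost without T1 replicate 4 or without T2 replicate 2, 3, 4, 6, 8, 9, 10 or 11.

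The largest rises above the same count minimum were smaller than the largest falls. ENSECAG00000001394 had 11.8, 41.5 and 122 CPM in T1 and 43.5, 143 and 409 in T2, a log2 fold change of 1.36 (SE 0.35, adjusted p = 0.0078, edgeR), and 7 T1 libraries lay below every T2 library. ENSECAG00000014360 had 2.76, 9.42 and 19.2 CPM in T1 and 10.2, 25.9 and 32.3 in T2, a log2 fold change of 1.28 (SE 0.27, adjusted p = 0.0066, edgeR). ENSECAG00000016033 had 1.77, 10.2 and 23.4 CPM in T1 and 16.1, 28.2 and 40.3 in T2, a log2 fold change of 1.19 (SE 0.31, adjusted p = 0.0083, edgeR). ENSECAG00000007843 had 0, 10.2 and 24.7 CPM in T1 and 10.5, 21.3 and 54.1 in T2, a log2 fold change of 1.24 (SE 0.43, adjusted p = 0.033, edgeR). The call of ENSECAG00000007843 was lost without T1 replicate 1, 2, 3 or 4 or T2 replicate 5, 6, 9 or 10, with log2 fold changes of 1.04 to 1.45 when 1 library was left out. Without the 5 libraries these 4 rises were 0.93, 0.84, 0.70 and 0.62.

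The periods did not overlap at 3 of 11188 genes (0.0268%), 2 higher (0.0179%) and 1 lower (0.00894%) in T2. ENSECAG00000000716 had 5.91, 27.0 and 32.4 CPM in T1 and 34.0, 40.4 and 51.6 in T2, a log2 fold change of 0.73 (SE 0.17, adjusted p = 0.0066, edgeR). ENSECAG00000018845 had 13, 80.1 and 106 CPM in T1 and 107, 124 and 147 in T2, a log2 fold change of 0.85 (SE 0.22, adjusted p = 0.0078, edgeR). In both genes the 7 other T1 libraries also lay below T2, at 25.4 to 32.4 and 74.6 to 106 CPM. Without the 5 libraries the log2 fold changes were 0.50 (SE 0.10, adjusted p = 0.10, edgeR) for ENSECAG00000000716 and 0.49 (SE 0.09, adjusted p = 0.084, edgeR) for ENSECAG00000018845. The third, ENSECAG00000025459, had a mean of 21.3 counts and a log2 fold change of -1.74.

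Of the 5 genes with the most counts, 1 was called, beside 32.0% of all genes, and 3 of the others had log2 fold changes of -0.31 to 0.11. ENSECAG00000020363 had a mean of 202300 counts per library, with 16100, 22300 and 42800 CPM in T1 and 13100, 17800 and 23800 in T2, and its log2 fold change of -0.39 (SE 0.19, adjusted p = 0.093, edgeR) did not pass. ENSECAG00000008542 fell, from 2760, 4830 and 46200 CPM in T1 to 1700, 2490 and 4540 in T2. Its log2 fold change was -2.10 (SE 0.45, adjusted p = 0.0066, edgeR) with all libraries and -0.45 (SE 0.19) without the 5, which held 12400 to 46200 CPM. Above the same count minimum, 0 of the 5 genes with the largest SD within T1 were called, where the share over all genes was 32.0%. Their choice by a large spread made a call unlikely from the start. Beside ENSECAG00000009368 above, they had log2 fold changes of -2.42 to 0.03.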

How the data were processed

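Gene counts of 12 T1 and 11 T2 libraries were used. Reads were trimmed for adapters and quality with Flexbar, aligned to EquCab2 with STAR and turned by the authors into expected counts of each gene with RSEM. The deposited table holds these expected counts without normalization, and they were used here rounded to whole numbers. Reads shared by near-identical genes are divided by estimation, which can blur MHC genes. Library totals were 3810631 to 14694001 counts, and after TMM scaling 1 CPM rests on 1.69 to 15.3 counts.

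Tests were run with edgeR 4.0.16 under R 4.3.3 (filterByExpr, TMM, quasi-likelihood F-test, Benjamini-Hochberg adjustment over all genes tested). CPM values use TMM-scaled totals, and log2 CPM a prior count of 2. The SE of a log2 fold change is its size over the root of its F statistic. Library measures were compared with 100000 permutations. Alternatives used DESeq2 1.42.0, limma 3.58.1 and sva 3.50.0, other scalings, filters and covariates, and each library left out. The fits without low-TMM or high-TMM libraries and within each sex were chosen after seeing the data. No pair of libraries was a duplicate (lowest chi-square per degree of freedom 15.4). By the study's methods the samples of 1 period come from separate horses and the same horses were sampled in both periods, which the tests do not model because the labels name no horse.

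Named genes were the 5 largest rises and falls with a mean of at least 50 counts, genes without overlap, genes with identifiers printed by the study, genes with most counts and those with the largest SD within T1, and members of the last 3 kinds that were not called are given in part only as ranges. Functional groups of the 74 genes, the lists and the genes named were chosen with earlier results of these data known. Pathway lists were not applied because 14 of 261 symbols could be paired with an identifier. The other 2 periods of the series entered only the fit of all 37 libraries and the filter on at least 6 counts in all of them, and qPCR values and gene positions were not used here.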

Additional observations from a re-analysis of the deposited data

How the results depend on the processing

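The 3584 called genes became 1754 with library totals only, 1018 with the fold threshold tested by glmTreat, and 0 with the first surrogate variable, with the log2 TMM factor, or without the 6 T1 libraries whose TMM factors lay below all of T2. With 2, 3, 4, 5 and 6 of the lowest-TMM T1 libraries left out 1852, 4, 1, 0 and 0 were called. Without the highest 5 there were 6881, and between stallions 0 in edgeR, 2 in DESeq2 and 0 in limma voom. Without the lowest 5, DESeq2 gave 15 and limma voom 705. Leaving out each library in turn gave 2534 to 4672 genes. The interaction of sex and period went from 0 to 35 genes with DESeq2, and the SD ratio from 1.71 to 0.857 and 0.864 without 5 and 6 low-TMM libraries. The other fits gave 2716 to 4904 genes. The causes were not tested.

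Of the 74 genes, the 22 called became 35 with all 37 libraries, 10 with glmTreat, 14 without the 2 lowest T1 libraries, 44 without the highest 5, and 15 to 35 with each library left out. They were 0 with the surrogate variable, the TMM covariate, 3 to 6 of the lowest left out or stallions only by edgeR, DESeq2 or limma voom. Without the lowest 5, DESeq2 gave 0 and limma voom 8.

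Among the genes whose own values the report gives, ENSECAG00000025459 apart, the sign reversed in 24 values, not counting genes given only by range. With the first surrogate variable the log2 fold changes were -0.06 in LY5, 0.06 in LOC100050719, -0.06 in LARP4, -0.03 in GALNT7, 0.04 in ENSECAG00000014186 and -0.08 in TRAPPC10. With the TMM covariate they were 0.04 in LOC100050719 and 0.05 in ENSECAG00000014186. With library totals they were 0.04 in ENSECAG00000012920, 0.11 in ENSECAG00000020363 and 0.13 in IL10RB. Without the lowest 5, ENSECAG00000009368 had 0.13 in edgeR, 0.12 in DESeq2 and 0.15 in limma voom. ENSECAG00000017437 had 1.95 with the surrogate variable, 1.79 with the TMM covariate, 1.64, 1.66 and 1.64 without the T1 libraries below T2, the lowest 5 and the lowest 6, and 1.54 in stallions. In DESeq2 and limma voom it had 1.67 and 0.34 without the lowest 5 and 1.48 and 0.66 in stallions.

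With the title number as a replicate block, 4592 genes were called, 52.2% of them higher. The numbers do not pair the libraries: of 11 numbers shared by T1 and T2, 6 join horses of equal sex, 7 correlate above 0.1 (range -0.314 to 0.483), and 3 T1 libraries correlate best with their own number.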
